A study of Mus musculus with 168 samples.

Results

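Modifier genes of spinal muscular atrophy (SMA), and genes that carry part of the effect of losing the SMN protein, were followed in mouse motor neurons and red nucleus neurons. The 9 genes are Pls3, Coro1c, Pfn2, Ncald, Chp1, Stmn1, Nrxn2, Uba1 and Zpr1. They were chosen by name, with earlier results of these data known, and all 9 of 9 were found among the 39410 rows of the deposited table. Zpr1 stands there under its older symbol, Zfp259. All 9 passed the filter on low values in every fit.

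The data are polyA RNA sequencing of neurons cut by laser from stained frozen sections, about 150 cells a tube (LCM-seq). SMA mice of the delta7 model carry Smn-/-, SMN2+/+ and SMN∆7+/+, and their control littermates carry Smn+/+ with the same SMN2+/+ and SMN∆7+/+ transgenes, so that the human SMN2 gene and the SMN∆7 cDNA are present in both genotypes. Neurons were taken at postnatal days 2, 5 and 10, which the study calls the pre-, early and late symptomatic stages, from 6 populations. These are the oculomotor and trochlear nuclei (here ocular), the facial, vagus and hypoglossal nuclei and the lumbar spinal cord, which hold motor neurons, and the red nucleus, whose neurons are not motor neurons. The 168 libraries came from 34 mice, 19 SMA and 15 control. At day 2 there were 6 control and 9 SMA mice, at day 5 there were 5 and 5, and at day 10 there were 4 and 5. Libraries of one mouse and population were averaged, which gave 160 mouse samples in 36 groups of 3 to 7 mice. Levels are RPKM, reads scaled to gene length and library size, and differences are on the log2(RPKM + 1) scale, where a fold change of a low gene is understated.

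SMN assembles the spliceosomal ribonucleoprotein particles and also acts in axons and at nerve terminals, and its loss kills motor neurons of the spinal cord early while eye motor neurons are spared. A modifier gene changes the severity of the disease. Most known modifiers act in actin turnover and endocytosis at the nerve terminal, in calcium signalling or in protein turnover. PLS3 bundles actin filaments and protects when it is raised, and CORO1C binds the same actin machinery. NCALD and CHP1 are calcium sensors that restrain endocytosis and calcineurin, and protect when they are lowered. Profilin 2, the product of Pfn2, binds actin monomers and SMN. Stathmin, the product of Stmn1, takes microtubules apart. Neurexin 2 is a presynaptic adhesion protein, UBA1 is the enzyme that activates ubiquitin, and ZPR1 is a zinc finger protein that binds SMN.

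The gene removed in the model was low where the labels say so: Smn1 lay between 4.32 and 63.3 RPKM in the 72 control samples (median 22.8), and was at 0 in 70 of the 88 SMA samples, with a highest value of 4.24. Mean Chat, the acetylcholine-synthesizing enzyme of motor neurons, was 20.2 to 33.9 RPKM in the 5 motor populations of controls and 0.176 in the red nucleus. Pou4f1, a red nucleus factor, had a control mean of 227.8 RPKM there and control means of at most 1.95 elsewhere, where single control samples reached up to 11.9 RPKM. Depth read from the RPKM steps was 342000 to 16300000 reads a library (median 5890000), so that 1 read on a gene of 1 kilobase was worth 2.93 RPKM in the shallowest library and 0.17 in the median one. The samples are bulk captures, in which fewer cells of a type and less RNA per cell cannot be told apart.

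Across the 36 groups the 9 genes differed by population and by age far more than by genotype. In the sums of squares of log2 values over the 160 mouse samples, population took 28.4% and day 17.4% at the median of the 9 genes, against 9.02% and 2.82% at the median of all 22270 genes tested. Genotype took 0.549% at the median of the 9 genes and 0.467% at that of all genes. These shares are not scaled for the number of groups in a factor, and a factor with more groups takes a larger share even without any effect. Stmn1 had the largest share for population among the 9 (48.4%), Pls3 the largest for day (38.8%), and Nrxn2 the largest for genotype (2.25%). The 9 genes also spanned a wide range of levels: Pfn2 was the highest, with means of 569 to 616 RPKM over the 6 control populations, followed by Uba1 and Nrxn2, and Stmn1 reached the lowest population mean, 7.63 RPKM.

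**Figure D1:**
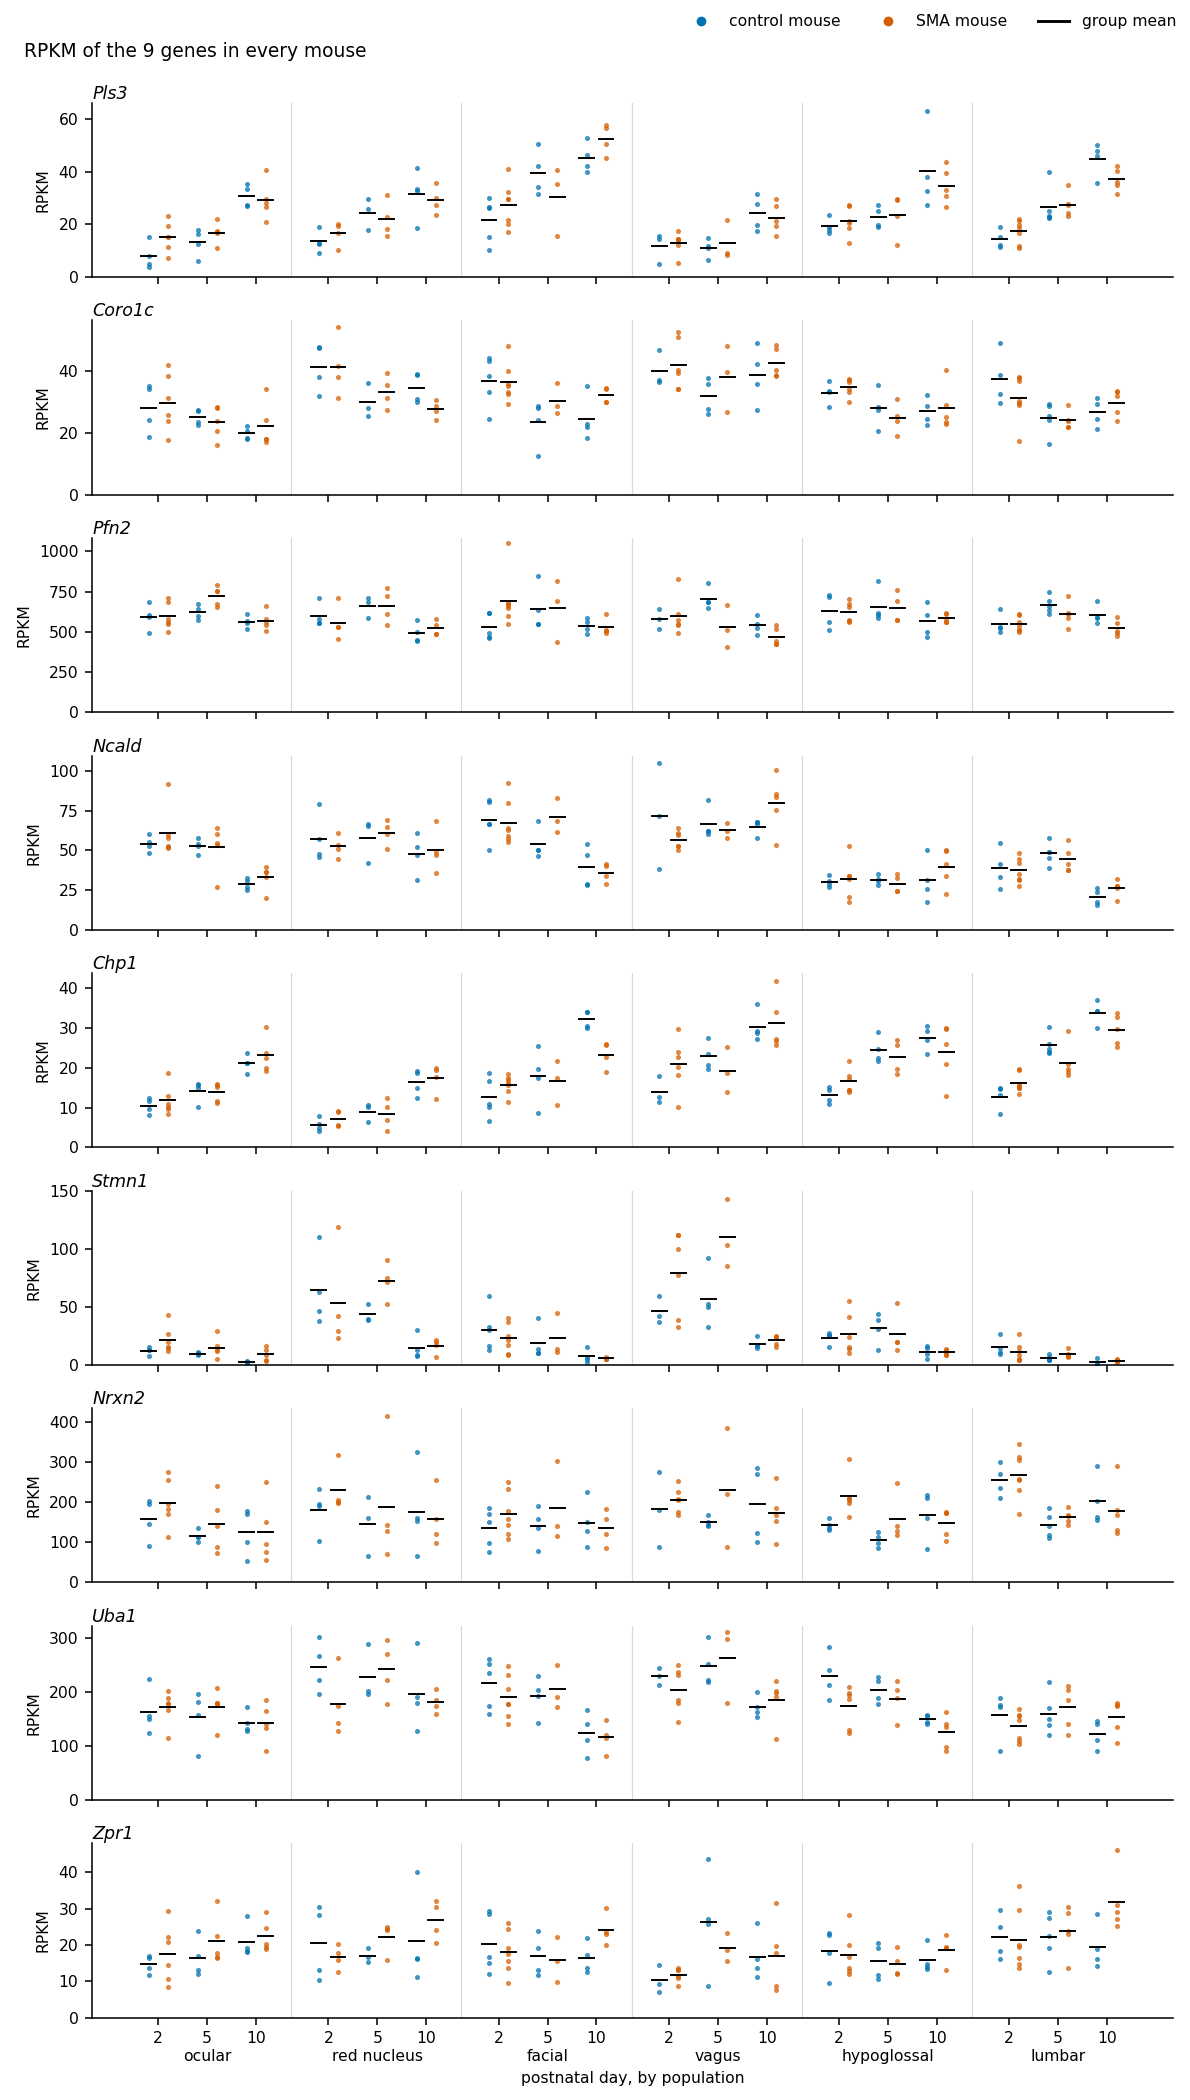
RPKM of each of the 9 genes (vertical axis, linear from 0) in every mouse, by population and postnatal day; blue points are control mice, orange points SMA mice and bars group means. Pls3 and Chp1 climbed from day 2 to day 10, Stmn1 was lower at day 10 than at day 2 in every population mean, and control and SMA points of the same day mostly lie over each other.

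The clearest pattern was a rise of Pls3 and Chp1 between day 2 and day 10 in control mice. Both passed the test (limma, Benjamini-Hochberg adjusted p under 0.05) in 5 of the 6 populations, all except the vagus. Because these 2 genes moved together, the 250 bases before the RefSeq start of each are shown (GRCm38.p6). The Pls3 window is chrX:75875183-75875432 on the minus strand and the Chp1 window is chr2:119547457-119547706 on the plus strand, both printed 5′ to 3′ in the direction of the gene, with capitals marking matches to GGGCGG or CCAAT on either strand.
Pls3: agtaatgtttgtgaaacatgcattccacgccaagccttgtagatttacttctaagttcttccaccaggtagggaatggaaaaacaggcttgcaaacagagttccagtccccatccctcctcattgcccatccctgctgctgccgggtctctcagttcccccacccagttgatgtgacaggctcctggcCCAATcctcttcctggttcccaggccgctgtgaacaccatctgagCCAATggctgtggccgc
Chp1: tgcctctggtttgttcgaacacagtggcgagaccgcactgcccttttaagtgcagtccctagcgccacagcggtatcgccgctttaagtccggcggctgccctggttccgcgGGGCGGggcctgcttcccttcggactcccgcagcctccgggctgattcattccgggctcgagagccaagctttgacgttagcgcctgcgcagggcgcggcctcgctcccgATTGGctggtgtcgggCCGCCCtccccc

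Both windows hold CCAAT, which 33.8% of the 32851 windows of that length hold on one strand or the other, and the Chp1 window also holds GGGCGG 2 times, which 32.7% hold at least once. The other letters searched were TATAAA (in 12.4% of windows), CACGTG (in 6.02%), TGACGTCA (in 1.55%) and CCGGAAG (in 6.91%), and neither gene's window held them. The GC content was 54% for Pls3 and 67.2% for Chp1, against a median of 52.4%. RefSeq windows matched 6 of the 9 genes.

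Pls3 lies on the X chromosome (GRCm38 chrX:75785654-75875182, minus strand). In ocular neurons of control mice it measured 3.9, 4.77, 8.18 and 15.1 RPKM at day 2 and 27.1, 27.4, 33.2 and 35.5 RPKM at day 10. The groups did not overlap, and the difference was 1.98 on the log2 scale (SE 0.351, 95% interval 1.26 to 2.69, adjusted p 0.000485). In lumbar neurons the values were 11.4, 12.3, 15.4 and 18.9 RPKM at day 2 and 35.7, 46, 47.7 and 50.2 RPKM at day 10, a difference of 1.58 (SE 0.21, adjusted p 3.21e-06). Day 5 lay between, with a mean of 13.2 RPKM in ocular and 26.7 in lumbar neurons. So the day 10 mean of Pls3 was 3.86 times the day 2 mean in ocular neurons, and 3.1 times in lumbar neurons.

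In facial neurons Pls3 was already at 10.4, 15.2, 26.3, 26.4 and 30 RPKM at day 2 and reached 39.8, 42.1, 46.5 and 52.7 RPKM at day 10 (log2 difference 1.12, SE 0.288, adjusted p 0.0188). Red nucleus neurons had 9.22, 12.7, 13 and 19.1 RPKM at day 2 and 18.5, 32.7, 33.4 and 41.3 RPKM at day 10, with 1 day 10 mouse inside the day 2 range (1.15, SE 0.296, adjusted p 0.0132). Hypoglossal neurons had 16.7, 18, 19 and 23.5 RPKM at day 2 and 27.3, 32.6, 38.1 and 63.1 RPKM at day 10 (0.964, SE 0.273, adjusted p 0.0349). All day 10 mice stood above all day 2 mice in the facial and hypoglossal groups. Of these calls 2 hung on single mice: the adjusted p for facial neurons reached 0.0668 when control mouse 26, 28 or 247 was left out, and that for hypoglossal neurons 0.143 when control mouse 26, 240, 244, 247 or 253 was left out. Vagus neurons, at 4.88, 14.4 and 15.7 RPKM at day 2 and 17.5, 19.9, 27.9 and 31.7 RPKM at day 10, also did not overlap, but the difference of 1.1 (SE 0.399) did not pass the test (adjusted p 0.217). With 1 fit over all 36 groups, an alternative, that difference passed (adjusted p 0.046).

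SMA mice showed Pls3 differences of 0.702 to 1.09 between day 2 and day 10, of which 2 passed the test. In lumbar neurons the 7 SMA mice of day 2 lay at 11.1 to 22.1 RPKM (median 18.7) and the 5 of day 10 at 31.5 to 42.3 RPKM, a log2 difference of 1.09 (SE 0.174, adjusted p 3.72e-05). In facial neurons the day 2 mice lay at 17.3 to 41.2 RPKM (median 29.7) and the day 10 mice at 45.2, 50.5, 56.5 and 57.8 RPKM (0.961, SE 0.269, adjusted p 0.0286). Both comparisons were free of overlap. The facial call was lost without SMA mouse 16, 18, 196, 211, 249 or 258 (adjusted p up to 0.087). The other 4 populations of SMA mice gave adjusted p between 0.0589 and 0.198.

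The calcium sensor Chp1 (GRCm38 chr2:119547697-119587027, plus strand) rose with age at least as evenly. In lumbar neurons of controls it measured 8.35, 13.1, 14.8 and 14.9 RPKM at day 2 and 29.9, 34.2, 34.3 and 37.1 RPKM at day 10 (log2 difference 1.37, SE 0.172, adjusted p 1.4e-06). Facial neurons had 6.57, 10, 10.9, 16.8 and 18.8 RPKM at day 2 and 30, 30.5, 34.1 and 34.2 RPKM at day 10 (1.37, SE 0.276, adjusted p 0.0025). Red nucleus neurons had 4, 4.76, 5.9 and 7.77 RPKM at day 2 and 12.5, 14.9, 18.8 and 19.1 RPKM at day 10 (1.41, SE 0.323, adjusted p 0.00567). In all 6 populations, the vagus included, every day 10 control mouse lay above every day 2 control mouse. Ocular neurons went from a mean of 10.5 to 21.2 RPKM (0.959, SE 0.228, adjusted p 0.0078), and hypoglossal neurons from 13.1 to 27.6 RPKM (1.02, SE 0.225, adjusted p 0.00589). Vagus neurons, at 11.4, 12.6 and 17.9 RPKM and then at 27.2, 28.7, 29.3 and 36.1 RPKM, had a difference of 1.08 (SE 0.284) with an adjusted p of 0.065. That difference passed with 1 fit over all 36 groups (adjusted p 0.00441), and without SMA mouse 207 (0.049) or 209 (0.0307).

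In SMA mice Chp1 rose in 3 populations, by 0.942 (SE 0.195, adjusted p 0.00229) in ocular, 1.17 (SE 0.323, adjusted p 0.0355) in red nucleus and 0.832 (SE 0.142, adjusted p 8.86e-05) in lumbar neurons. The red nucleus call was lost without SMA mouse 199, 209, 211, 249 or 258 (adjusted p up to 0.116). The facial difference was 0.543 (SE 0.258, adjusted p 0.234), the vagus 0.6 (SE 0.225, adjusted p 0.16) and the hypoglossal 0.46 (SE 0.192, adjusted p 0.203). The lumbar SMA mice lay at 13.4 to 19.6 RPKM (median 15.4) at day 2 and 25.3 to 33.8 RPKM at day 10. Chp1 shares a stretch of 470 bases at 97.4% identity with the processed pseudogene Gm20056, so some of its reads may be placed uncertainly.

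Oligodendrocyte markers changed over the same days. The sum of 5 oligodendrocyte markers (Mbp, Mog, Mag, Mobp, Cnp) in lumbar control samples was 16 to 43.4 RPKM at day 2 and 464.2 to 989.9 RPKM at day 10, and 24 of 29 marker tests over the 6 populations passed as higher at day 10. The sum went from 14.7 to 21.6 RPKM at day 2 to 279.5 to 381.2 RPKM at day 10 in ocular samples, and from 14.7 to 24.7 RPKM to 290.9 to 575.8 RPKM in red nucleus samples. It went from 24 to 38.2 RPKM to 193.6 to 235.3 RPKM in facial samples, and from 30.5 to 88 RPKM to 155.1 to 627.2 RPKM in hypoglossal samples. In vagus neurons the sum was 51.8 to 104.4 RPKM at day 2 and 38 to 77.3 RPKM at day 10, with 0 markers called. Pls3 and Chp1 differed there by 1.1 and 1.08 without passing the test in the main fit. The markers' part in the rise of Pls3 and Chp1 was not tested. Of the other captured cell types, 1 astrocyte marker test passed as higher and 3 as lower of 30, and 0 microglia or vessel marker tests passed.

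**Figure D2:**
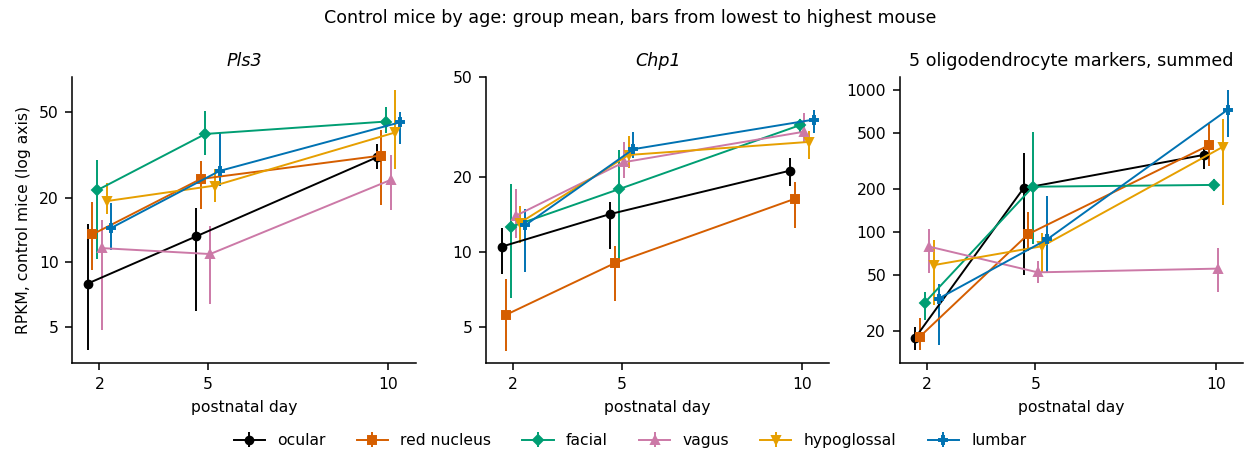
Mean RPKM of Pls3, Chp1 and the sum of the 5 oligodendrocyte markers (log axes) in control mice against postnatal day, 1 line a population, with bars from the lowest to the highest mouse. Pls3 and Chp1 end higher at day 10 in all 6 populations, while the marker sum climbs in 5 and reaches at most 104.4 RPKM in vagus neurons.

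Library number and age ran together in both genotypes. Every day 10 library has a higher number than every day 2 and day 5 library of its genotype. Between day 2 and day 10, library number and age can therefore not be told apart in controls or in SMA mice. The part of library number in the age calls of SMA mice was not tested. Among day 2 control libraries, those of mice 240 and 244 have the numbers nearest to the day 10 controls. Their numbers overlap with those of SMA libraries of day 10. With only those 2 mice as day 2 controls, an alternative chosen after seeing the data, all 18 age calls of the 9 genes kept their direction and 10 passed the test. In ocular and red nucleus neurons that leaves mouse 244 alone at day 2, which is assumed to vary like the other groups. The calls lost were Chp1, Stmn1 and Ncald in ocular neurons, Pls3, Chp1 and Stmn1 in red nucleus neurons, and Pls3 in facial (0.749, adjusted p 0.285) and hypoglossal neurons (1.1, adjusted p 0.0822). Pls3 in red nucleus neurons then differed by 1.19 (adjusted p 0.123) and in lumbar neurons by 1.54 (adjusted p 0.000307). Without those 2 mice, which leaves 1 day 2 mouse in vagus neurons, 13 age tests passed, and the calls lost were Stmn1, Uba1 and Ncald in facial, Pls3 in hypoglossal and Ncald in lumbar neurons.

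Over all 9 genes, 18 of 54 age tests in controls passed, 10 higher and 8 lower at day 10. When no other group entered the fit, and so fewer mice stood behind the spread, 10 passed. The calls kept under every alternative and without every single mouse were Pls3 in ocular and lumbar neurons, Chp1 in facial, hypoglossal and lumbar neurons, and Stmn1 in lumbar neurons. By population, the members called and the share of all genes called were 4 of 9 against 8.02% in ocular, 3 of 9 against 11.1% in red nucleus, 5 of 9 against 5.36% in facial, 0 of 9 against 1.02% in vagus, 2 of 9 against 5.11% in hypoglossal and 4 of 9 against 12% in lumbar neurons. In SMA mice 13 of 54 passed, 5 higher and 8 lower, and 8 passed without SMA mouse 249 or without SMA mouse 258. Those were 3 of 9 in ocular (6.66% of all genes), 1 of 9 in red nucleus (5.06%), 4 of 9 in facial (6.73%), 1 of 9 in vagus (3.31%), 0 of 9 in hypoglossal (4.31%) and 4 of 9 in lumbar neurons (18.4%). The share of the 9 genes called was thus above that of all genes in 5 of 6 populations in controls. The shares are not matched for level: all genes include rows near the filter of 1 RPKM, while control medians of the 9 genes were 14.4 to 586 RPKM. The part of level in the shares was not tested. Among all genes 4.38% were higher and 3.64% lower in ocular neurons, and 4.76% were higher and 7.25% lower in lumbar neurons.

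**Figure D3:**
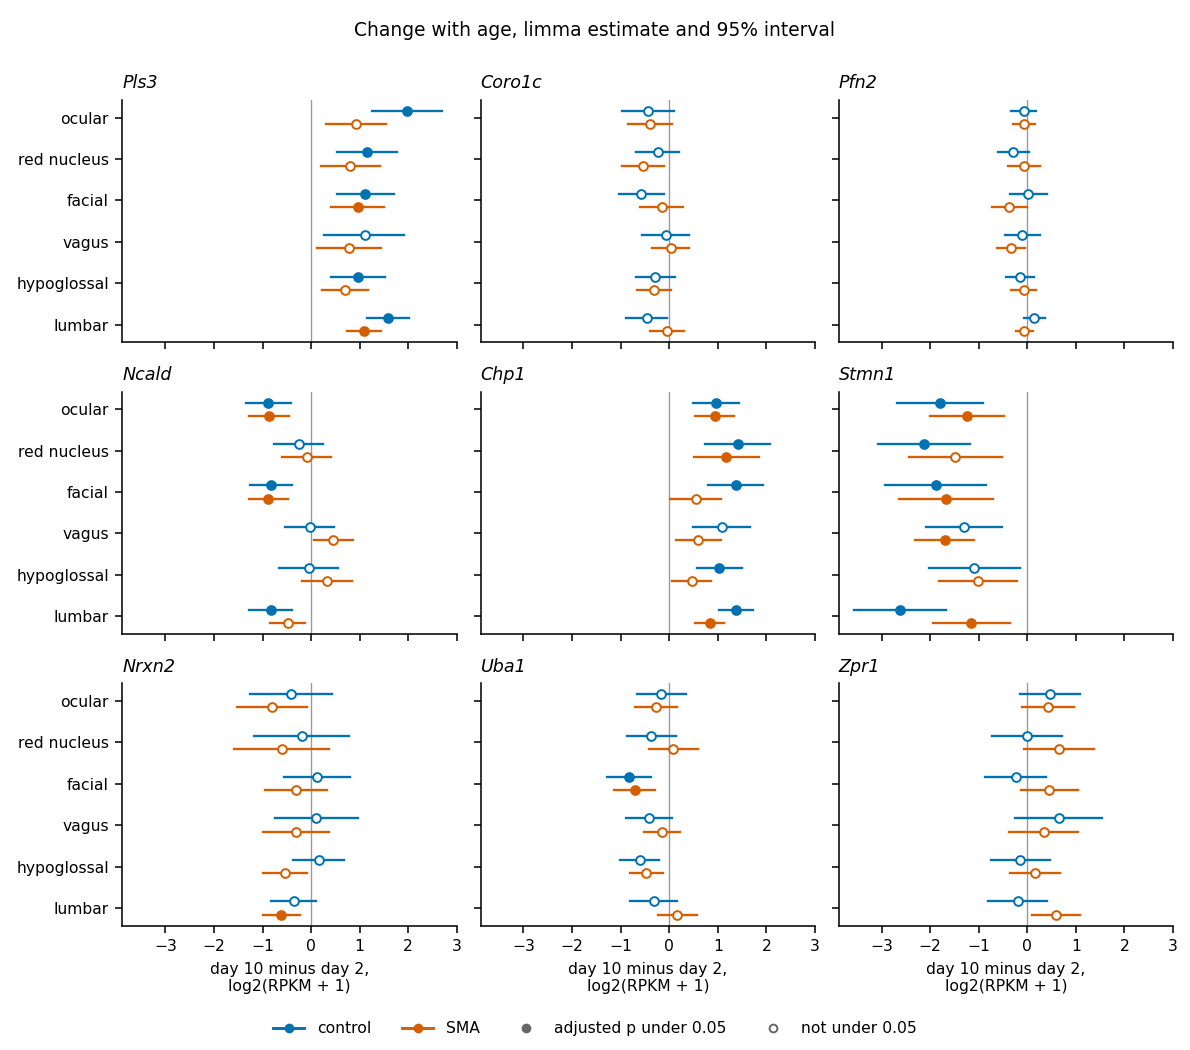
Difference between day 10 and day 2 on the log2(RPKM + 1) scale (horizontal axis) for each gene and population, with 95% intervals, in control mice (blue) and SMA mice (orange); filled points have an adjusted p under 0.05. Pls3 and Chp1 lie to the right of 0 and Stmn1 to the left of 0 in all 6 populations of both genotypes.

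Stmn1 (GRCm38 chr4:134468320-134473843, plus strand) went the other way and fell in 4 populations of controls. In lumbar neurons it measured 9.58, 10.8, 14.2 and 26.8 RPKM at day 2 and 0, 1.1, 1.67 and 5.58 RPKM at day 10, without overlap (log2 difference -2.62, SE 0.465, adjusted p 0.000198). In ocular neurons it measured 7.78, 12.7, 12.9 and 15.6 RPKM and then 2.04, 2.66, 2.77 and 3.47 RPKM (-1.8, SE 0.433, adjusted p 0.00831). In red nucleus neurons it measured 37.6, 46.8, 63.2 and 110.7 RPKM and then 7.75, 8.85, 12.6 and 30.4 RPKM (-2.12, SE 0.459, adjusted p 0.00353). The day 10 mean was thus 0.136 of the day 2 mean in lumbar, 0.223 in ocular and 0.231 in red nucleus neurons.

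Facial neurons had a Stmn1 mean of 30.1 RPKM at day 2 and 7.42 at day 10, with overlapping values (-1.89, SE 0.506, adjusted p 0.0238, and up to 0.112 without control mouse 240, 247, 252 or 253). The vagus (-1.3, SE 0.377, adjusted p 0.0959) and hypoglossal (-1.09, SE 0.458, adjusted p 0.193) differences did not pass. In SMA mice Stmn1 fell by 1.24 (SE 0.371, adjusted p 0.0394) in ocular, by 1.67 (SE 0.473, adjusted p 0.0302) in facial, by 1.7 (SE 0.299, adjusted p 0.00238) in vagus and by 1.15 (SE 0.385, adjusted p 0.0354) in lumbar neurons. The vagus call held without any single mouse. The ocular call was lost without SMA mouse 38, 206, 211, 249, 250 or 258 (adjusted p up to 0.132), the facial call without SMA mouse 16, 18, 196, 199, 249 or 258 (up to 0.0801), and the lumbar call without SMA mouse 38, 55, 196, 199, 207, 250 or 258 (up to 0.0866).

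A second row of the table holds Gm11223, a processed pseudogene that matches Stmn1 at 99.8% over 450 bases. Reads of the pair cannot be told apart over that stretch, and the Gm11223 level was above that of Stmn1 in all 36 group means and in all but 1 of the 160 mouse samples. Gm11223 was lower at day 10 in all 6 populations of controls and passed the test in each, by -1.89 in ocular, -2.64 in red nucleus, -2.03 in facial, -2.67 in lumbar, -1.62 in vagus and -1.42 in hypoglossal neurons. With the 2 rows summed, Stmn1 also passed in vagus (adjusted p 0.00876) and hypoglossal neurons (adjusted p 0.00837) of controls, and no longer passed in facial neurons of SMA mice (-1.48, adjusted p 0.0508), an alternative added after seeing the data. The level of Stmn1 as listed is therefore uncertain, and the row of its copy also fell with age.

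**Figure D4:**
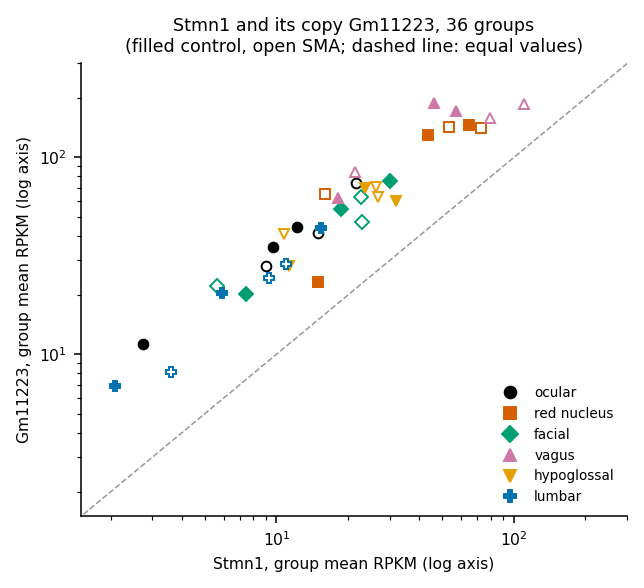
Mean RPKM of Gm11223 against mean RPKM of Stmn1 in the 36 groups (log axes), filled for control and open for SMA, 1 symbol a population; the dashed line marks equal values. All 36 points lie above the line.

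Ncald, the calcium sensor whose product binds clathrin (GRCm38 chr15:37366175-37792570, minus strand), fell with age in 3 populations of controls. In ocular neurons it measured 48.4, 52.8, 55.1 and 60.3 RPKM at day 2 and 25.4, 27.1, 30.9 and 32.8 RPKM at day 10, without overlap (log2 difference -0.879, SE 0.231, adjusted p 0.0159). Facial neurons had a mean of 69.2 RPKM at day 2 and 39.5 at day 10 (-0.832, SE 0.21, adjusted p 0.0161). Lumbar neurons had 38.6 and 20.9 RPKM (-0.834, SE 0.213, adjusted p 0.00816). Ranges overlapped in the facial and lumbar groups. These calls were lost without control mouse 252 for ocular neurons (adjusted p 0.0559), mouse 247 or 252 for facial neurons (up to 0.0846) and mouse 20 for lumbar neurons (0.0559). In hypoglossal neurons Ncald kept means of 30.2, 31.7 and 31.1 RPKM at days 2, 5 and 10, and the interval of the day 10 difference was -0.661 to 0.558. In SMA mice it fell by 0.871 (SE 0.198, adjusted p 0.00545) in ocular and by 0.878 (SE 0.196, adjusted p 0.00568) in facial neurons, and the lumbar difference was -0.483 (SE 0.177, adjusted p 0.0547). Ncald overlaps genes on the other strand, and whether the counting used strand is not given in the sources used here.

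Uba1 (GRCm38 chrX:20658326-20683179, plus strand), the ubiquitin-activating enzyme, passed with age in facial neurons alone of the 6 populations tested. Its facial values were 159.4, 173.4, 236.2, 251.8 and 262.1 RPKM at day 2 and 78, 110.9, 140.2 and 167.1 RPKM at day 10 in controls, overlapping by 1 mouse (-0.825, SE 0.223, adjusted p 0.0253). That call was lost without control mouse 26, 240, 244, 252 or 253, with an adjusted p of up to 0.138. In SMA mice the facial fall was of like size (-0.714, SE 0.208, adjusted p 0.0353), and was lost without SMA mouse 16, 196, 199, 207, 209 or 249 (adjusted p up to 0.173). Hypoglossal control values did not overlap, at 184.8, 213.01, 241.4 and 283.4 RPKM and then 140.6, 144.9, 155.5 and 158.2 RPKM, with a difference of -0.603 (SE 0.196) that did not pass (adjusted p 0.0736).

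Coro1c (GRCm38 chr5:113842436-113908758, minus strand) and Pfn2 (GRCm38 chr3:57841895-57848079, minus strand), the other actin genes, and Zpr1 (GRCm38 chr9:46273064-46282643, plus strand) passed no age test in either genotype. Coro1c differences in controls ran from -0.573 to -0.073, all below 0. Pfn2 differences ran from -0.288 to 0.145, the narrowest spread of the 9 genes. Zpr1 differences ran from -0.241 to 0.643. Nrxn2 (GRCm38 chr19:6418731-6544169, plus strand) also passed none in controls (-0.414 to 0.156), but in lumbar neurons of SMA mice it fell from a mean of 267.4 to 178.7 RPKM, with overlap (-0.618, SE 0.188, adjusted p 0.02). That call was lost without SMA mouse 250 or 258 (adjusted p up to 0.0831). Coro1c shares 297 bases at 99.7% identity with the overlapping antisense gene Gm17122, and Nrxn2 overlaps genes on the other strand.

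In each population a further test asked if the gap between genotypes shifted over the days. None of the 54 tests of the 9 genes passed (limma F test; lowest adjusted p 0.509, 2 at an unadjusted p under 0.05). Among all genes 0.101% passed in ocular, 0.104% in facial and 0% in red nucleus, vagus, hypoglossal and lumbar neurons. A call in controls and none in SMA mice, as for Chp1 in facial neurons, is therefore no shown difference between genotypes.

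The genes also differed between populations in controls. Of the 9 genes, 6 passed the test of any difference between the 6 populations (each the mean of its 3 days), where 42.5% of all genes passed: Stmn1 (adjusted p 8.21e-18), Chp1 (4.06e-14), Ncald (1.01e-12), Pls3 (1.04e-10), Uba1 (2.37e-05) and Coro1c (0.000132). Nrxn2 (0.116), Zpr1 (0.494) and Pfn2 (0.821) did not. Of the 135 pairs of populations, 48 passed, against 16.8% of all pairs of all genes. Stmn1 passed in 11 of its 15 pairs, Pls3 and Ncald in 9, Chp1 in 8, Uba1 in 6, Coro1c in 4, Nrxn2 in 1, and Pfn2 and Zpr1 in 0. Pairs share populations, so these counts are not independent. Some ocular libraries came from the oculomotor or the trochlear nucleus alone, and without them the ocular calls of Pls3 and Uba1 against red nucleus, Uba1 against vagus, Chp1 and Ncald against hypoglossal, and Nrxn2 and Ncald against lumbar neurons were lost. Without the day 2 control mice 240 and 244, the calls lost were Stmn1 in facial over ocular and in vagus over hypoglossal neurons, Ncald in vagus over ocular and in ocular over lumbar neurons, Pls3 in red nucleus over vagus neurons and Nrxn2 in lumbar over ocular neurons. With only those 2 mice at day 2 (1 of them in ocular and red nucleus neurons), the ocular calls lost were Coro1c against red nucleus, Chp1 against vagus and hypoglossal, and Nrxn2 and Ncald against lumbar neurons. The others lost were Stmn1, Uba1 and Coro1c in red nucleus against facial, Coro1c in facial against vagus and Uba1 in hypoglossal against lumbar neurons.

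Pls3 was highest in facial neurons, at 34.5 ± 12.9 RPKM (SD, n = 13), followed by lumbar (28.5 ± 13.7, n = 13), hypoglossal (27.5 ± 12.9, n = 12), red nucleus (23 ± 10.2, n = 11), ocular (17.3 ± 11.1, n = 12) and vagus neurons (16 ± 8.17, n = 11). The SD holds mice of all 3 days. The only neighbours in that order that passed were red nucleus over ocular neurons (0.568, adjusted p 0.0155), and facial over lumbar neurons did not (0.354, adjusted p 0.157). Ocular neurons, which are spared in the disease, had less Pls3 than lumbar neurons (-0.823, SE 0.172, adjusted p 7.73e-05) and than facial neurons (-1.18, SE 0.172, adjusted p 1.01e-08). The call of red nucleus over ocular neurons was lost without control mouse 28 or 29 (adjusted p up to 0.101) or with the single-nucleus ocular libraries left out. That of red nucleus over vagus neurons (0.586, adjusted p 0.0148) was lost without mouse 244 (0.132).

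Chp1 was at 24.3 ± 9.1 RPKM in lumbar (n = 13), 23.2 ± 7.53 in vagus (n = 11), 21.7 ± 7 in hypoglossal (n = 12), 20.3 ± 9.78 in facial (n = 13), 15.3 ± 5.07 in ocular (n = 12) and 10.4 ± 5.37 in red nucleus neurons (n = 11). The red nucleus was below all 5 motor populations, by 1.18 against lumbar (SE 0.136, adjusted p 9.71e-13) and by 0.598 against its neighbour, ocular (SE 0.138, adjusted p 0.000399). Ocular neurons were in turn below vagus, hypoglossal and lumbar neurons, the last by 0.578 (SE 0.132, adjusted p 0.00034). The 4 populations from lumbar to facial did not differ in any of their pairs.

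Ncald was highest in vagus neurons (67.5 ± 16.5 RPKM, n = 11), then in facial (55.4 ± 17, n = 13), red nucleus (54.1 ± 13.4, n = 11), ocular (45.4 ± 12.7, n = 12), lumbar (36.8 ± 14.1, n = 13) and hypoglossal neurons (31 ± 7.68, n = 12). Every one of the 4 higher populations differed from both lumbar and hypoglossal neurons. Vagus over hypoglossal was the widest gap, 1.1 on the log2 scale (SE 0.14, adjusted p 6.88e-11), and lumbar and hypoglossal neurons did not differ from each other (0.133, interval -0.131 to 0.398, adjusted p 0.62). The gap of ocular over lumbar neurons (0.382, adjusted p 0.0335) was lost without control mouse 28, 30, 71, 240, 247 or 254 (adjusted p up to 0.11).

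Stmn1 was at 40.8 ± 29.3 RPKM in red nucleus (n = 11), 39.8 ± 23.1 in vagus (n = 11), 22.2 ± 12 in hypoglossal (n = 12), 19.6 ± 16.4 in facial (n = 13), 8.22 ± 4.58 in ocular (n = 12) and 7.63 ± 7.06 in lumbar neurons (n = 13). Vagus exceeded lumbar neurons by 2.52 on the log2 scale (SE 0.279, adjusted p 1.39e-13), and ocular and lumbar neurons did not differ (0.341, interval -0.195 to 0.877, adjusted p 0.488). Facial over ocular neurons (0.901, adjusted p 0.00985) was lost without control mouse 29 (0.0672), and vagus over hypoglossal (0.843, adjusted p 0.0247) without control mouse 34, 240, 244 or 254 (up to 0.0657). The share of reads held by Gm11223 applies here too.

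Uba1 ran from 224.1 ± 55.5 RPKM in red nucleus (n = 11) and 215.6 ± 43.1 in vagus neurons (n = 11), through 194.7 ± 43.5 in hypoglossal (n = 12) and 180.7 ± 55.5 in facial (n = 13), to 153.7 ± 37.3 in ocular (n = 12) and 147.4 ± 38.2 in lumbar neurons (n = 13). No neighbours in this order differed. Lumbar neurons were below red nucleus neurons (0.621 as red nucleus minus lumbar, adjusted p 0.000175), vagus (0.587 as vagus minus lumbar, adjusted p 0.000432) and also below hypoglossal neurons (0.426 as hypoglossal minus lumbar, adjusted p 0.0131). Ocular neurons were below red nucleus (-0.545, adjusted p 0.00153) and vagus neurons (-0.511, adjusted p 0.00335), and both calls were lost with the single-nucleus ocular libraries left out. The call of hypoglossal over lumbar neurons was lost without control mouse 253 (0.0569), and that of red nucleus over facial neurons (0.368, adjusted p 0.0464) without control mouse 14, 28, 34, 252, 253 or 254 or SMA mouse 61 (up to 0.319).

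Coro1c was at 36.7 ± 7.61 RPKM in vagus (n = 11) and 35.9 ± 7.38 in red nucleus neurons (n = 11), 29.3 ± 5.13 in hypoglossal (n = 12), 29.3 ± 8.09 in lumbar (n = 13), 28.9 ± 9.57 in facial (n = 13) and 24.4 ± 5.72 in ocular neurons (n = 12). Ocular neurons were below vagus (-0.588, SE 0.125, adjusted p 0.000103) and red nucleus neurons (-0.527, SE 0.125, adjusted p 0.000606). Facial neurons were below vagus neurons (-0.423, adjusted p 0.00712) and below red nucleus neurons (0.362 as red nucleus minus facial, adjusted p 0.0268), the latter lost without control mouse 28, 30, 34, 252 or 254 (up to 0.105). Vagus minus lumbar was 0.325 (adjusted p 0.0538), and passed with the mouse as a replicate block (adjusted p 0.0446).

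Nrxn2 differed in 1 pair, lumbar (196 ± 63 RPKM, n = 13) over ocular neurons (133 ± 46, n = 12): ocular minus lumbar was -0.606 (SE 0.216, adjusted p 0.037). The call was lost without any one of control mice 20, 26, 30, 240, 244, 247, 252 and 253 (adjusted p up to 0.0944). Pfn2 was 568.5 ± 101.9 RPKM in facial neurons (n = 13), its lowest population, and 616.3 ± 103 in hypoglossal neurons (n = 12), its highest, and intervals of neighbouring differences stayed within -0.161 to 0.201. Zpr1 means lay between 16.5 ± 4.85 in hypoglossal (n = 12) and 21.3 ± 5.97 RPKM in lumbar neurons (n = 13).

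SMA mice were then compared with controls at each day. None of the 162 tests of the 9 genes passed (limma; 12 at an unadjusted p under 0.05; lowest adjusted p 0.255), and SMA was higher in 87. Of all genes, 3.09% to 11.2% had an unadjusted p under 0.05 in the same limma tests by day. Their median differences ran from -0.0076 to 0.134. All genes passed rarely as well: at days 2, 5 and 10 the shares called were 0.132%, 0.0252% and 0.359% in ocular, 0.0434%, 0.0062% and 0.0124% in red nucleus, 0.0232%, 0.0695% and 0.666% in facial neurons. They were 0.00599% at each day in vagus, 0.0364%, 0.00607% and 0.0728% in hypoglossal, and 0.0122%, 0.0488% and 0.775% in lumbar neurons. The 0 of 9 genes called at each of the 18 tests is near those shares. In 36 of the 162 tests the 95% interval reached past a 2-fold change, and in the rest it lay within one either way. Averaged over the 3 days, 0 of 54 tests passed (7 at an unadjusted p under 0.05; lowest adjusted p 0.168), with 52 intervals within 2-fold, and the shares of all genes were 0.371% in ocular, 0.0062% in red nucleus, 0.591% in facial, 0.696% in lumbar, 0.00599% in vagus and 0.0789% in hypoglossal neurons. In that average, 5.11% to 11.4% of all genes of a population had an unadjusted p under 0.05 (limma).

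Pls3 in ocular neurons at day 2 had the lowest adjusted p of the tests by day. Its control values of 3.9, 4.77, 8.18 and 15.1 RPKM stood beside SMA values of 7.13 to 23.3 RPKM (median 15.2, n = 6), which overlapped, with a difference of 0.94 (SE 0.32, interval 0.283 to 1.6, adjusted p 0.255). At day 10 the ocular means were 30.8 RPKM in controls and 29.1 in SMA mice. In lumbar neurons, which the disease is known to affect, Pls3 means were 14.5 and 17.3 RPKM at day 2, 26.7 and 27.5 at day 5 and 44.9 and 37 at day 10 (control first). Averaged over days, the lumbar difference was 0.00952 (interval -0.216 to 0.235, adjusted p 0.991).

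Stmn1 had the largest difference by size. In ocular neurons at day 10 the control values of 2.04, 2.66, 2.77 and 3.47 RPKM lay below all SMA values, 3.56, 3.96, 8.12, 13.2 and 16.4 RPKM, and the difference of 1.24 (SE 0.411, interval 0.398 to 2.08) did not pass (adjusted p 0.423). In these samples the sum of 5 motor neuron markers was 926 to 1024 RPKM in controls and 452.5 to 875.1 RPKM in SMA mice. The sum of 2 red nucleus markers was 4.74 to 16.9 RPKM in controls and 9.07 to 176.9 RPKM in SMA mice, with overlap. The part of captured cells in the Stmn1 values was not tested. In vagus neurons at day 5 the controls had 32.6 to 91.8 RPKM and the SMA mice 85.3, 104 and 143 RPKM (1.01, SE 0.377, adjusted p 0.901). Averaged over days the ocular difference was 0.773 (SE 0.234, interval 0.293 to 1.25, adjusted p 0.168) and the vagus difference 0.628 (SE 0.204, adjusted p 0.951). The Gm11223 row gave 0.583 (adjusted p 0.377) in ocular and 0.115 (adjusted p 0.973) in vagus neurons. By day its largest difference was in red nucleus neurons at day 10 (1.43, SE 0.339, adjusted p 0.33), where Stmn1 differed by 0.187. In ocular neurons at day 10 the Gm11223 difference was 1.07 (SE 0.443, adjusted p 0.729). In lumbar neurons at day 10 Stmn1 had 0, 1.1, 1.67 and 5.58 RPKM in controls and 2.6 to 5.06 RPKM in SMA mice.

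For Chp1 in facial neurons at day 10, the controls had 30, 30.5, 34.1 and 34.2 RPKM and the SMA mice 18.9, 22.7, 25.7 and 25.9 RPKM. The groups did not overlap, yet the difference of -0.455 (SE 0.291, interval -1.05 to 0.141) was within the spread that the 6 facial groups share (adjusted p 0.819). Lumbar Chp1 was 29.9 to 37.1 RPKM in controls and 25.3 to 33.8 RPKM in SMA mice at day 10. Averaged over days Chp1 intervals in the 6 populations ran from -0.387 to 0.471. The Ncald intervals, the other calcium sensor, ran from -0.281 to 0.415.

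Nrxn2 in hypoglossal neurons at day 2 was 130.4, 134.4, 141.8 and 160.6 RPKM in controls and 161.97 to 306.7 RPKM (median 207.3) in 6 SMA mice, again without overlap (0.581, SE 0.234, adjusted p 0.398). Its average over days there was 0.337 (SE 0.141, adjusted p 0.491), and in lumbar neurons 0.0198 (interval -0.224 to 0.263, adjusted p 0.978). Zpr1 in lumbar neurons at day 10 was 14.1, 16.1, 18.8 and 28.6 RPKM in controls and 25.3, 27.2, 29, 31.1 and 46 RPKM in SMA mice (0.698, SE 0.278, adjusted p 0.341), with 1 control inside the SMA range. Of the 162 tests, 4 had groups that did not overlap: Stmn1 in ocular neurons at day 10 and in red nucleus neurons at day 5, Chp1 in facial neurons at day 10 and Nrxn2 in hypoglossal neurons at day 2.

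Uba1 in hypoglossal neurons at day 2 was 184.8, 213.01, 241.4 and 283.4 RPKM in controls and 124.8 to 209.7 RPKM (median 190.7) in SMA mice (-0.416, SE 0.179, adjusted p 0.439). Averaged over days Uba1 differences ran from -0.276 in hypoglossal to 0.0917 in lumbar neurons, none past the test. Pfn2 had the narrowest intervals: its average over days in lumbar neurons was -0.114 (interval -0.227 to -0.000952, adjusted p 0.489). Coro1c averages ran from -0.0573 to 0.275, the highest in facial neurons (interval -0.00377 to 0.554, adjusted p 0.498). Whether the genotype difference itself differed between the 6 populations was tested in 1 fit over all groups, and 0 of 9 genes passed (limma F test, 0 at an unadjusted p under 0.05, lowest adjusted p 0.736 for Pfn2), against 0.202% of all genes.

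**Figure D5:**
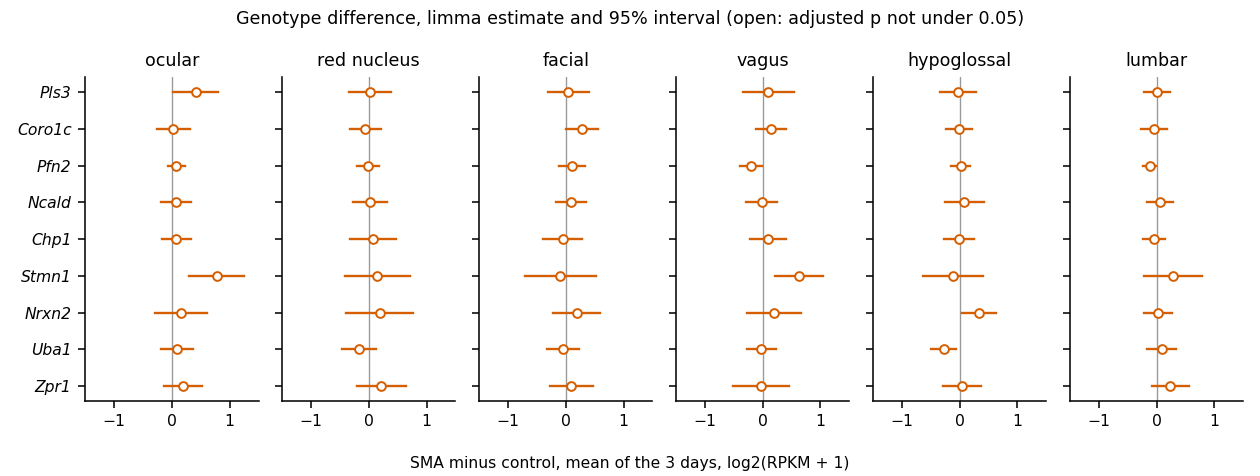
SMA minus control, averaged over the 3 days, on the log2(RPKM + 1) scale (horizontal axis) for each of the 9 genes in each population, with 95% intervals; open points have an adjusted p not under 0.05. All 54 points are open, with Stmn1 in ocular (0.773) and vagus neurons (0.628) farthest from 0.

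Genes of the same pathways were counted from lists of partners and paralogs. With age in controls, over all gene tests of the 6 populations 7.06% passed, and over the tests by genotype 0.129% passed by day and 0.293% averaged over days. The microtubule list (13 genes such as Tuba1a, Map1b and Dcx) passed in 34 of 78 age tests, 2 higher and 32 lower, with medians of -0.935 to -0.11 over the populations, where the medians of all genes were -0.104 to 0.0559. Dcx, a microtubule protein of young neurons, fell in all 6 populations by 2.06 to 3.45 on the log2 scale. Tubb5 fell in all 6 by less, from -0.935 in red nucleus to -0.431 in lumbar neurons, and Tubb2b fell in 5. Stmn1 had thus the direction of 32 of the 34 calls on that list. The list of actin and endocytosis genes (34 genes) passed in 21 age tests as higher and in 2 as lower, 11.3% of its tests (medians 0.000898 to 0.168). Pacsin1, an endocytic adaptor, rose in all 6 populations, by 1.1 to 1.83.

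The calcineurin and calcium sensing list (8 genes analysed) passed as higher in 4 and lower in 2 of 48 age tests (medians -0.214 to 0.0965). The ubiquitin list (17 genes analysed) passed as higher in 1 and as lower in 3 tests (medians -0.288 to 0.0666), and the list of Zpr1 partners and JNK kinases (12 genes) in 7 and 1 of 69 (medians 0.073 to 0.345), Mapk10 being higher in 4 populations. The neurexin partners (12 genes analysed) passed in 1 and 7 of 72 (medians -0.361 to 0.0781), with Cask, a presynaptic scaffold, lower in 5. Other genes tied to SMA severity (4 genes) passed in 0 and 3 of 18 (medians -0.844 to -0.199).

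In the SMA comparisons 1 gene of these pathway lists passed. Cdc34, a ubiquitin-conjugating enzyme, was higher in SMA mice at day 10 in facial (0.867, SE 0.191, adjusted p 0.0255) and lumbar neurons (0.63, SE 0.138, adjusted p 0.0189), and averaged over days in facial (0.503, SE 0.108, adjusted p 0.0199) and lumbar neurons (0.357, SE 0.0763, adjusted p 0.016). Medians of the pathway lists over the 18 tests by day ran from -0.411 to 0.313, where the medians of all genes ran from -0.0076 to 0.134. Of the marker lists, Gfap, an astrocyte filament, was higher in facial SMA samples at day 10 (2.81, SE 0.544, adjusted p 0.00742), the samples in which Chp1 had no overlap, and Mbp, a myelin protein, was higher in red nucleus SMA samples at day 2. Their part in the Chp1 values was not tested.

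Paralogs of the 9 genes (26 genes analysed) passed in 10 age tests as higher and in 9 as lower, 13.8% of their tests (medians -0.212 to 0.139). Lcp1, the plastin of blood cells, had a median of 14.3 RPKM over the 72 control samples and rose in 4 populations, by 1.6 in ocular, 2.38 in facial, 2.15 in hypoglossal and 1.13 in lumbar neurons, and Pls1 had a median of 1.72 RPKM. Stmn4 fell by 2.46 in ocular, fell by 2.77 in red nucleus and fell by 1.88 in lumbar neurons. Other stathmins were far above Stmn1 per length, with medians of 1393 RPKM for Stmn2 and 2148 RPKM for Stmn3. Hpcal1, a relative of Ncald, fell by 1.85 in ocular, fell by 1.35 in facial and fell by 0.995 in hypoglossal neurons. Median Pfn1 was 422.3 RPKM, while Chp2 and Uba1y had a median of 0.

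The genes whose group means ran most like each member's were found over the 36 groups among 12506 genes, by Pearson correlation of mean log2 values; groups share mice and libraries, and no test was made. Chp1 had the closest matches, Cpeb1 (0.916), Syt11 (0.909) and Sept8 (0.902). Pls3 was most like Sult4a1 (0.847), Kcns3 (0.827) and Ehd3 (0.824), and Ncald most like P2rx2 (0.834), Cpne7 (0.811) and Tbrg1 (0.81). Stmn1 was most like its copy Gm11223 (0.966), then D430019H16Rik (0.917) and Cnih2 (0.915). The closest for Coro1c was Nptxr (0.847), for Uba1 Lpcat1 (0.863), for Nrxn2 Rps10-ps1 (0.788), for Pfn2 Sept7 (0.768) and for Zpr1 Chpf (0.712).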

How the data were processed

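PolyA RNA of laser-captured neurons was sequenced with Smart-seq2 chemistry and Tn5 tagmentation, per the labels' protocols. The authors deposited 1 table of RPKM values for 39410 rows and 168 libraries. Reads were aligned with STAR 2.4.1c, and the builds mm10 and hg19 are named, without their roles, per the submitters' processing notes. The counter, the annotation and the use of strand are not given in the sources used here. Per the labels, 5 lumbar control libraries of day 5 include reads of an earlier deposit. Library totals were read from the steps of the RPKM values. At a tolerance of 0.02 reads, 67.8% to 80.7% of low values in a library were whole reads (median 77.6%), so no count test was run and depth is an estimate. The highest correlation between 2 libraries was 0.976, and no library was counted as a repeat of another.

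Libraries of 1 mouse and population were averaged. The test was limma (version 3.58.1, R version 4.3.3) on log2(RPKM + 1) values (lmFit, eBayes with trend, two-sided), in 1 fit per population for genotype and age and in 1 fit over all 36 groups for populations. A row was tested where the number of mice at 1 RPKM or more reached the size of the fit's smallest group. P-values were adjusted by Benjamini-Hochberg over all genes of a contrast, or over all genes and the 15 pairs together, with a threshold of 0.05. Labels do not say more of the mice than their number, day and genotype, and p-values measure the spread between these mice. Populations share mice, since a mouse number in the labels marks 1 animal, and the consensus correlation between samples of a mouse was 0.0366. The scripts were tested on simulated data. Gene copies were found by BLAST 2.17.0 against the reference transcripts of the GRCm38 assembly, in stretches of at least 200 bases at 95% identity or more.

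The 9 genes, the lists of partners, paralogs and markers, and the rule for other genes named (genes of a list past the threshold in an SMA comparison, close paralogs, and for each of the 9 genes those of highest correlation over the 36 groups) were chosen with earlier results of these data known. Genes named with age values from the partner lists were chosen after their values were seen. Some genes of the lists are not reported here, and counts, medians and sums leave them out. Alternatives were pseudocounts of 0.1 and 5, no filter, quantile normalization, each library as its own sample, a term for sex, the mouse as a replicate block, other sets of libraries or groups, and each mouse left out in turn. Sex is not in the labels and was read from the levels of Xist and Ddx3y in each mouse. By that reading 12 of the 19 SMA mice and 9 of the 15 control mice were female.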

Additional observations from a re-analysis of the deposited data

Results flagged for a closer look

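In 22 of 288 groups of 4 or more mice (7.64%), 1 mouse stood apart from the others of its group by a gap large against the group's whole range. Chance flags about 1 in 20 where values are normally distributed. The rule was run on RPKM and not on log2 values, and the part of that scale in the flags was not tested. Of the 22 values, 17 were high and 5 low. Pls3 was at 40 RPKM in lumbar neurons of control mouse 75 at day 5, where the other mice had 22.6 to 25 RPKM.

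Pfn2 was high in facial neurons of SMA mouse 38 at day 2 (1050.8 RPKM, others 551.1 to 679.6), in hypoglossal neurons of control mouse 34 at day 5 (814.9, others 586.4 to 617.1), in red nucleus neurons of control mouse 14 at day 2 (711.2, others 553.6 to 576.8) and in vagus neurons of SMA mouse 16 at day 2 (827.1, others 495.4 to 611.2).

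Ncald was high in ocular neurons of SMA mouse 206 at day 2 (91.9 RPKM, others 51.5 to 59.8) and in vagus neurons of control mouse 29 at day 5 (81.8, others 60.3 to 62.3). It was low in ocular neurons of SMA mouse 76 at day 5 (26.8 RPKM, others 53.6 to 64.2) and in vagus neurons of control mouse 252 at day 10 (57.7, others 66.4 to 68.2).

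In lumbar neurons of SMA mouse 76 at day 5, both Chp1 (29.2 RPKM, others 18.1 to 20.9) and Stmn1 (14.5, others 7.08 to 9.02) were high. In hypoglossal neurons of SMA mouse 31 at day 5, both Stmn1 (53.2 RPKM, others 13 to 19.6) and Nrxn2 (247.4 RPKM, others 118.9 to 140.4) were high. Stmn1 was also high in facial neurons of control mouse 29 at day 5 (40.6, others 10.1 to 13.4). Nrxn2 was also high in hypoglossal neurons of SMA mouse 211 at day 2 (306.7, others 162 to 213.8) and in red nucleus neurons of SMA mouse 206 at day 2 (317.7, others 198.4 to 205.9).

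Uba1 was low in lumbar neurons of control mouse 28 at day 2 (90.2 RPKM, others 172.2 to 188.6) and in vagus neurons of SMA mouse 199 at day 10 (112.8, others 190.6 to 220.1). Zpr1 was high in control mouse 252 at day 10, both in hypoglossal (21.4 RPKM, others 13.4 to 14.7) and ocular neurons (27.9, others 18.2 to 19.2), and high in lumbar neurons of SMA mouse 249 at day 10 (46, others 25.3 to 31.1). It was low in red nucleus neurons of SMA mouse 77 at day 5 (15.8, others 24.1 to 24.8).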

How the results depend on the processing

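None of the calls changed direction under the alternatives. Differences that did not pass could change sign, as for Ncald with age in vagus neurons of controls (-0.0313, and 0.743 without control mice 240 and 244, which leaves 1 mouse at day 2 there). The 0 calls between genotypes, by day, averaged over days, over age and between populations, stayed at 0 in all settings run, and the count of genes that differed between control populations stayed at 6. The age count in controls (18) was 10 with the fit limited to the groups compared, which holds fewer mice, and 10 with only control mice 240 and 244 at day 2, chosen after seeing the data, which leaves 1 mouse at day 2 in ocular and red nucleus neurons and 2 elsewhere. It was 13 without those 2 mice and 20 with 1 fit over all 36 groups, and ranged from 14 to 19 without each mouse in turn (34 fits). The age count in SMA mice (13), added after seeing the data, was 9 to 15 over 13 settings and 8 to 15 without each mouse in turn. The count of population pairs (48) was 39 to 50 over 12 settings and 45 to 50 without each mouse. With the mouse as a replicate block it was 49: the pairing gained Coro1c in vagus over lumbar neurons, lost no call and changed no other call. Depth limits the low levels: at the median depth 1 read on a gene of 1 kilobase is 0.17 RPKM, and in the shallowest library, a red nucleus one, 2.93 RPKM. In 36 genotype tests the interval still holds a 2-fold change, which the number of mice and the depth leave undecided.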
